A study of Mus musculus with 6 samples.

Results

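The genes of the proteasome and of its assembly chaperones were followed in mouse white adipocytes with and without induced deletion of Dicer1. This gene encodes a microRNA-processing enzyme. Members were the genes whose symbols begin with Psma, Psmb, Psmc, Psmd, Psme, Psmf or Psmg and a number, without Psmb8, Psmb9, Psmb10 and pseudogenes, together with the transcription factor gene Nfe2l1. The RefSeq annotation of GRCm38.p6 holds 49 such genes, and 30 of the 13734 genes in the deposited table were among them. The other 19, among them Nfe2l1 and the core subunits Psma2, Psmb2 and Psmb6, are not analysed here. Of the 30 members, 29 passed a filter of at least 1 CPM (reads scaled to the library size) in at least 3 libraries, as did 10054 genes of the table. The lowest value of any of the 29 in any library was 4.03 log2 CPM, so none passed through one group alone.

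Poly(A) RNA came from an immortalized line of subcutaneous white preadipocytes that carry Dicer1 flox/flox and Cre-ERT2, a Cre recombinase active only when tamoxifen binds it, and that were differentiated into adipocytes. Cells of the DICER_KO group (3 libraries) received 10 µM 4-hydroxytamoxifen for 48 h from day 6 of differentiation, and control cells (3 libraries) received ethanol. All cultures then received 10 µM isoproterenol, a beta-adrenergic agonist, for 6 h. No control received the drug, so the deletion and the drug cannot be told apart. All libraries derive from 1 line, and the labels do not say whether the biological replicates were differentiated separately, so the p-values below speak of library-to-library spread, which may be technical.

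The proteasome degrades proteins tagged with ubiquitin. Its core particle is a barrel of alpha and beta rings, with the proteolytic sites on beta subunits inside. The regulatory particle caps the barrel: a base of ATPases unfolds the substrate, and a lid holds the enzyme that removes ubiquitin. Other caps, inhibitors and dedicated chaperones complete the family. When proteasome activity falls short, Nfe2l1 induces the subunit genes together, a response that brown adipocytes of mice need during cold exposure.

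Reads on the genes of the table numbered 13569034 to 30268077 per library, and the 29 members held 307 to 15288 reads each per library. For the members with the fewest reads, such as Psmg3 and Psmd10, counting error was not small beside the spread between libraries. Dicer1 stood at 6.14, 6.09 and 6.14 log2 CPM in controls against 5.43, 5.47 and 5.49 in DICER_KO replicates 1 to 3, and it fell by 0.66 (SE 0.10, limma adjusted p = 0.0150, with a range of 8.72e-06 to 0.147 over the alternatives). Dicer1 transcript thus remained in DICER_KO (fold 0.633), and these RNA libraries do not measure the enzyme itself. DICER_KO replicate 3 stood apart from the other 2 DICER_KO libraries and was the deepest, at 30268077 reads. All 10 listed markers of mature adipocytes were present, and their median lay 0.59, 0.59 and -1.18 from the control mean in DICER_KO replicates 1, 2 and 3. Their summed level ranged from 12.78 to 13.12 log2 CPM in controls and from 11.81 to 13.51 in DICER_KO. The summed level of the 7 measured of 8 preadipocyte markers ranged from 9.73 to 9.90 and from 9.55 to 9.93. The 4 measured of 6 macrophage markers summed to 4.58 to 4.86 in controls against 4.86 to 5.01 in DICER_KO, and the 3 endothelial markers to -0.08 to 1.13 and -0.49 to 0.52. The macrophage markers did not move together. Cd68 was above every control in all DICER_KO libraries, while Csf1r was below every control in DICER_KO replicates 1 and 2. Lyz2 and Mrc1 held only 2 to 33 reads per library. Because DICER_KO replicate 3 stood apart, results are given with and without it.

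With all libraries the fitted differences of the 29 measured members were small. Of these members 0 passed the limma test at an adjusted p of 0.05, where 0.438% of all genes tested did. At that share a count of 0 among 29 does not set the members apart, and the smallest difference called in any gene was 0.58. Psme2b alone had an unadjusted p under 0.05, which is 3.45% of members against 15.8% of all genes, and limma-voom on recovered reads called 0 members with 0 at an unadjusted p under 0.05. Fitted differences ran from -0.18 for Psmg3 to 0.42 for Psme2b on the log2 scale, with a median of 0.07 over the 29 members and 0.02 over all genes tested. All 29 differences were smaller than 0.5 in size, as were 92.4% of those of all genes. The median size of a difference was 0.08 for members and 0.16 for all genes. The 95% intervals of single members reached from -0.46 to 0.83 at the widest over all 29 members. For the 26 members other than Psme1, Psme2 and Psme2b they reached from -0.46 to 0.45. The direction was positive for 23 members and for 52.8% of all genes.

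**Figure D1:**
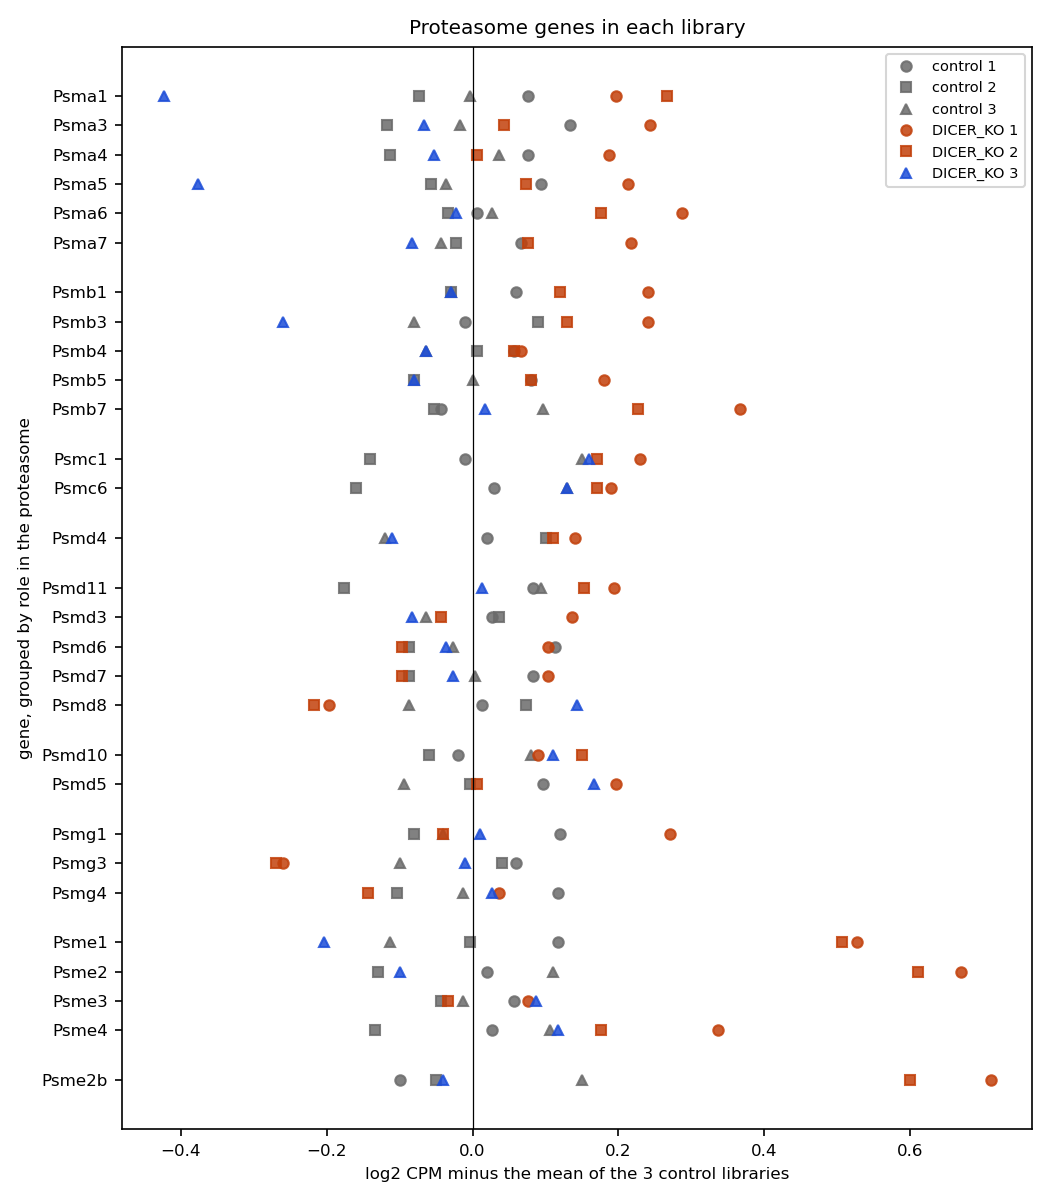
Each row is a proteasome gene, grouped by role, and each point is a library, plotted as log2 CPM minus the mean of the 3 controls (grey controls, orange DICER_KO replicates 1 and 2, blue DICER_KO replicate 3). Psme1, Psme2 and Psme2b reach 0.51 to 0.71 in DICER_KO replicates 1 and 2, while in replicate 3 the lowest points are Psma1 at -0.42 and Psma5 at -0.37.

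Without DICER_KO replicate 3, 4 of 29 members rose and 0 fell, where 12.5% of all genes rose and 7.22% fell, 19.7% in all. The 4 were Psme1, Psme2, Psme2b and Psmb7. An unadjusted p under 0.05 was reached by 9 of 29 members, or 31%, and by 35% of all genes. The median difference of the 29 members was then 0.14, beside 0.02 for all genes tested, and 26 members were positive, as were 52.5% of all genes. Without DICER_KO replicate 1 the median of the members was 0.0004. With only DICER_KO replicates 1 and 2 kept, 17 members lay above every control and 2 below. These were 58.6 and 6.9% of members, where 28.2 and 23.5% of all genes did so. With all libraries 3 members, Psmc1, Psmd10 and Psme4, lay above every control and 0 below, or 10.3% of members, and 10.4% of all genes lay above and 9.81% below. In bulk RNA, fewer cells of a type and less RNA per cell cannot be told apart.

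**Figure D2:**
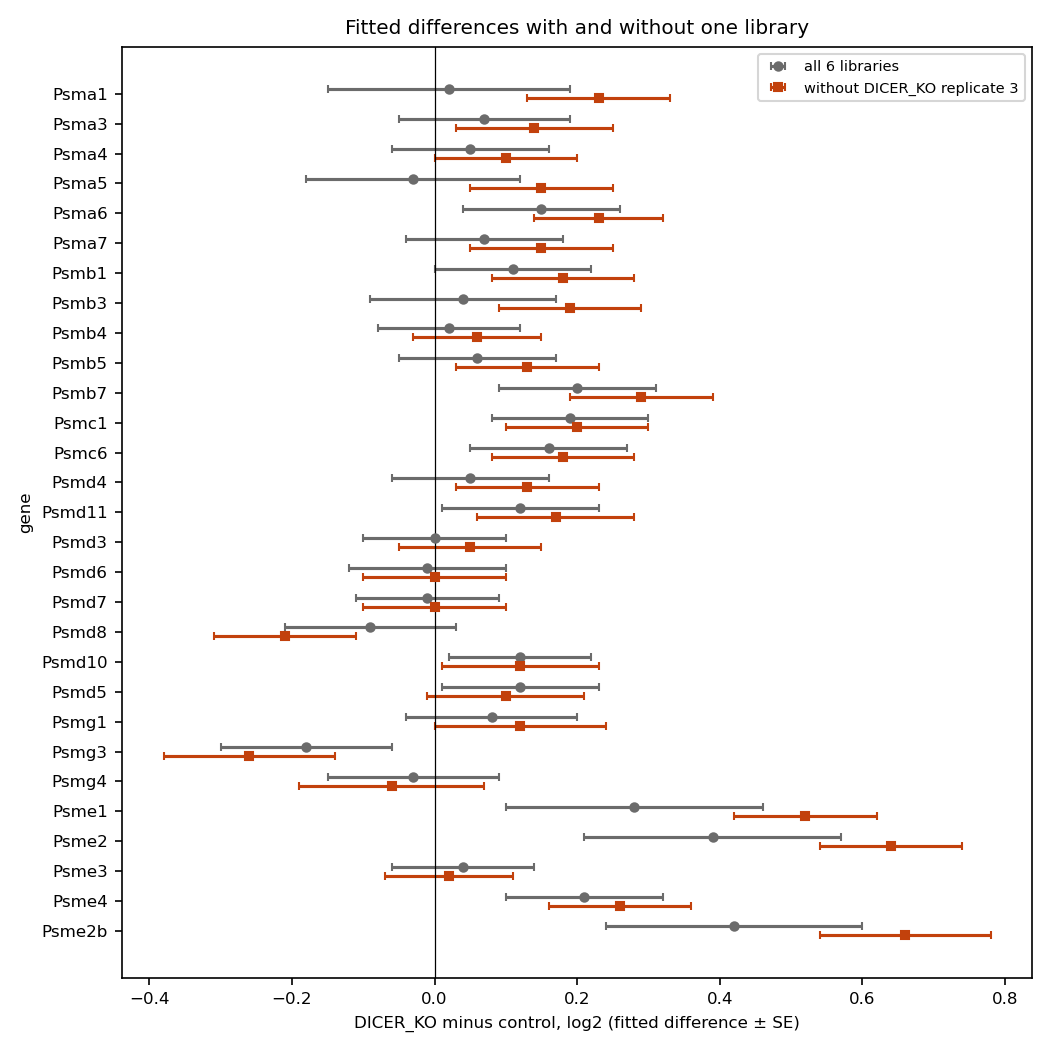
Fitted DICER_KO minus control difference of each member on the log2 scale with its standard error, from all 6 libraries (circles) and without DICER_KO replicate 3 (squares). The 3 genes Psme1, Psme2 and Psme2b move from between 0.28 and 0.42 to between 0.52 and 0.66, and Psmd8 and Psmg3 move to -0.21 and -0.26.

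The alpha ring gates the entry of substrates into the core particle, and 6 of its 7 genes were measured. None passed with all libraries or without DICER_KO replicate 3, where 0.438% and 19.7% of all genes tested did. Psma6 had the largest positive difference. It stood at 7.60, 7.56 and 7.62 log2 CPM in controls against 7.88, 7.77 and 7.57 in DICER_KO replicates 1 to 3 (difference 0.15, SE 0.11, adjusted p = 0.494). The groups overlapped through replicate 3. Psma5, with the only negative difference of the ring, stood at 6.70, 6.55 and 6.57 in controls against 6.82, 6.68 and 6.23 in DICER_KO (difference -0.03, SE 0.15, adjusted p = 0.937). Psma1 had the widest spread of the ring in DICER_KO, with 7.61, 7.68 and 6.99 against 7.49, 7.34 and 7.41 in controls. In both genes replicate 3 was below every control, while for Psma1 the other DICER_KO libraries were above every control. Psma3, Psma4 and Psma7 differed by 0.07, 0.05 and 0.07.

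The beta ring carries the proteolytic sites, and 5 of its 7 genes were measured, all with positive differences. Psmb7, which encodes the trypsin-like site, was the member of the core particle with the smallest p. It stood at 7.33, 7.32 and 7.47 log2 CPM in controls against 7.74, 7.60 and 7.39 in DICER_KO (difference 0.20, SE 0.11, adjusted p = 0.394). Replicate 3 lay within the controls and the other DICER_KO libraries above them, and without replicate 3 Psmb7 rose by 0.29 (SE 0.10, adjusted p = 0.0474). Over the alternatives tried, its adjusted p ranged from 0.00424 to 0.797. Psmb5, which encodes the chymotrypsin-like site, stood at 6.83, 6.67 and 6.75 in controls against 6.93, 6.83 and 6.67 in DICER_KO (difference 0.06, SE 0.11, adjusted p = 0.777). Its groups overlapped. The structural subunit genes Psmb1, Psmb3 and Psmb4 differed by 0.11, 0.04 and 0.02. All 5 genes of the ring lay above every control in DICER_KO replicates 1 and 2, as did 28.2% of all genes tested. For Psmb4 and Psmb5 this was a near tie: replicate 2 and the highest control both rounded to 8.08 and to 6.83.

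The base of the regulatory particle was represented by 3 of 9 genes. Psmc1, an ATPase gene, stood at 7.24, 7.11 and 7.40 log2 CPM in controls against 7.48, 7.42 and 7.41 in DICER_KO (difference 0.19, SE 0.11, adjusted p = 0.389). The groups did not overlap, but the lowest DICER_KO library was close to the highest control. Psmc6, a second ATPase gene, read 7.02, 6.83 and 7.12 in controls against 7.18, 7.16 and 7.12 in DICER_KO (difference 0.16, SE 0.11, adjusted p = 0.441). Both ATPase genes varied less among DICER_KO libraries (SD 0.04 and 0.03) than among controls (SD 0.14 and 0.15, n = 3 each), and replicate 3 did not fall away from the others in either. Psmd4, the gene of a ubiquitin receptor, differed by 0.05 (SE 0.11).

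The lid was represented by 5 of 8 genes, and its differences lay around 0. Psmd8, a lid subunit gene, ran opposite to the core particle. It stood at 8.37, 8.43 and 8.27 log2 CPM in controls against 8.16, 8.14 and 8.50 in DICER_KO (difference -0.09, SE 0.12, adjusted p = 0.713). DICER_KO replicates 1 and 2 were below every control and replicate 3 was above every control. Without replicate 3 the difference was -0.21 (SE 0.10, adjusted p = 0.138). Psmd11, the largest positive difference of the lid, read 6.82, 6.56 and 6.83 in controls against 6.93, 6.89 and 6.75 in DICER_KO (difference 0.12, SE 0.11, adjusted p = 0.580). The lid subunit genes Psmd3, Psmd6 and Psmd7 differed by 0.00, -0.01 and -0.01, with standard errors of 0.10 to 0.11.

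The core and the regulatory particle were compared within each library, where the scaling of the library cancels. Over 11 core and 8 regulatory particle genes the fitted medians were 0.06 and 0.02, a gap of 0.04. Single libraries moved these medians: without DICER_KO replicate 3 they were 0.15 and 0.09, a gap of 0.06, and without DICER_KO replicate 1 they were -0.01 and -0.02, a gap of 0.01. Without control replicate 2 they were 0.02 and 0.03, and the gap was -0.0016. Without control replicate 3 they were 0.06 and -0.01. By library, the mean distance from the control mean was 0.05, -0.04 and -0.01 for the core in controls against 0.22, 0.12 and -0.13 in DICER_KO replicates 1 to 3. For the regulatory particle it was 0.04, -0.05 and 0.01 in controls against 0.11, 0.02 and 0.02 in DICER_KO. The core thus stood above the regulatory particle by 0.11 and 0.10 in DICER_KO replicates 1 and 2 and below it by a gap of -0.15 in replicate 3, while the controls lay between -0.02 and 0.01. The gap was 0.00 ± 0.02 in controls against 0.02 ± 0.15 in DICER_KO (SD, n = 3 each), so the DICER_KO libraries differed in direction and the group means did not separate. These are descriptions of the measured genes, with no test. All 11 core genes were lower in DICER_KO replicate 3 than in both other DICER_KO libraries, as were 5 of 8 regulatory particle genes and 40.6% of all genes tested. In that library 6 of 11 core genes and 1 of 8 regulatory particle genes were below every control, where 28.9% of all genes were. The median of the 10 mature adipocyte markers moved in the same directions by library, at 0.59, 0.59 and -1.18. Of these markers 9 were above the control mean in DICER_KO replicates 1 and 2, and 0 in replicate 3. The exception was Lpl, which was below every control in all DICER_KO libraries. The part of these markers in the result was not tested.

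**Figure D3:**
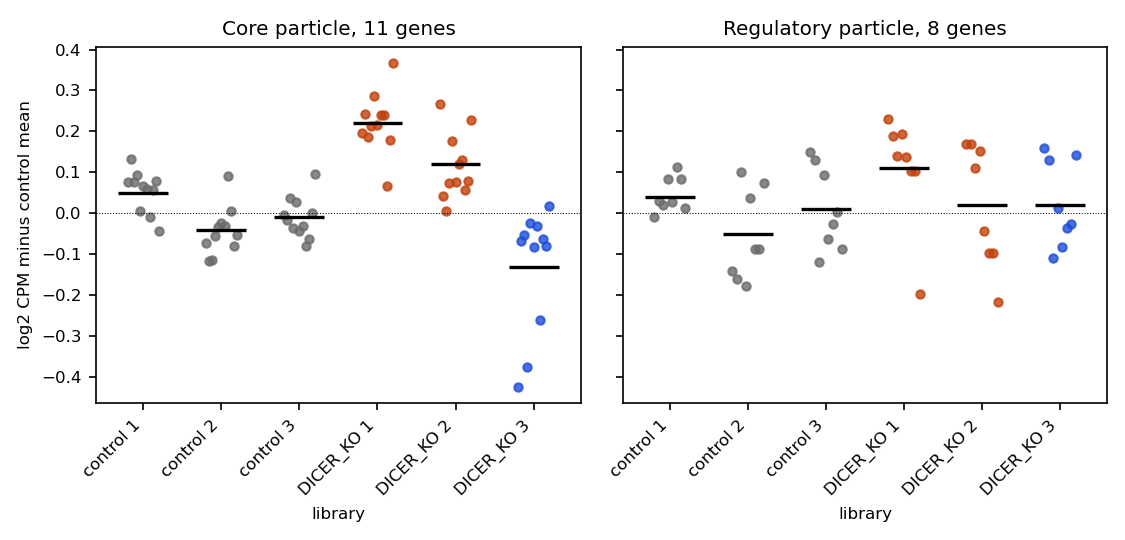
Points are genes of the core particle (left, 11 genes) and the regulatory particle (right, 8 genes) in each library, as log2 CPM minus the control mean, and bars are means over genes. The core bar stands at 0.22, 0.12 and -0.13 in DICER_KO replicates 1 to 3, while the regulatory particle bar stands at 0.11, 0.02 and 0.02.

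Psme2b, Psme2 and Psme1 had the 3 largest differences of the family, at 0.42, 0.39 and 0.28. The products of Psme1 and Psme2 form a ring that opens the core particle without ATP or ubiquitin and that interferon gamma induces together with the immunoproteasome subunits. Psme1 (Entrez ID 19186; GRCm38 chromosome 14, 55578494 to 55581527) and Psme2 (Entrez 19188; chromosome 14, 55587440 to 55591101) are neighbours with 5912 bases between them. Psme2b (Entrez 621823; chromosome 11, 48945345 to 48946410) is a copy of Psme2 on another chromosome: its transcript matched that of Psme2 over 794 aligned bases at 99.4% identity, and because the counting could divide reads among these copies, neither value is certain. Psme1 and Psme2 transcripts were 68.1% identical over 674 bases. Their promoter windows, from 250 bases before to 50 bases after the annotated start, are shown because these genes moved together. Capitals mark the only match on either strand to the core of the interferon-stimulated response element, searched as TTTC, any 2 bases and TTTC. That motif was chosen after the values were seen.
Psme1, chr14:55578244-55578543, plus strand: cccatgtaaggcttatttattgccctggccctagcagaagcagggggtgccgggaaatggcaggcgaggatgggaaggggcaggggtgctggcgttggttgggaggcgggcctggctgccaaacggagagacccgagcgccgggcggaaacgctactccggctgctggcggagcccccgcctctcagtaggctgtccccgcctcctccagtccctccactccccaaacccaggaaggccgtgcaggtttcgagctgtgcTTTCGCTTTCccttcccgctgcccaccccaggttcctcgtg
Psme2, chr14:55591052-55591351, minus strand: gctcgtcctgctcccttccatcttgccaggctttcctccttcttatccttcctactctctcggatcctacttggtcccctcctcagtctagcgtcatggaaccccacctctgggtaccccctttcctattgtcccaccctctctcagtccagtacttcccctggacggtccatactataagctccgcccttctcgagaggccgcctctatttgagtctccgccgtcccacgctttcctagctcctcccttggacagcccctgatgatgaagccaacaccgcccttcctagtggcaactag
Psme2b, chr11:48946361-48946660, minus strand: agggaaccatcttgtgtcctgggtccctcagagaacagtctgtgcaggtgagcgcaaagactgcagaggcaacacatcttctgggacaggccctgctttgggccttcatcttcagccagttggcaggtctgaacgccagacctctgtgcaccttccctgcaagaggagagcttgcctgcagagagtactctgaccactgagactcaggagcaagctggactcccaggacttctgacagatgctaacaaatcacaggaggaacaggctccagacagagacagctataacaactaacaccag
The match in Psme1 lies at bases 10 to 19 from the start. The windows of Psme2, which has a second annotated start, and Psme2b hold none, and 3.77% of genes in the table with a window hold one. Among members it was also found in Psmb3, Psmd4 and Psmg4, in all 4 of 26 members with a window, or 15.4%.

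Psme2 stood at 6.26, 6.11 and 6.35 log2 CPM in controls against 6.91, 6.85 and 6.14 in DICER_KO replicates 1 to 3. Replicates 1 and 2 were above every control and replicate 3 was among the controls. The difference with all libraries was 0.39 (SE 0.18, adjusted p = 0.329), and without replicate 3 Psme2 rose by 0.64 (SE 0.10, adjusted p = 0.000509). Psme1 read 6.48, 6.36 and 6.25 in controls against 6.89, 6.87 and 6.16 in DICER_KO. Replicates 1 and 2 were again above every control, and replicate 3 was below them. It differed by 0.28 (SE 0.18, adjusted p = 0.437) and rose by 0.52 without replicate 3 (SE 0.10, adjusted p = 0.00218). Psme2b read 4.60, 4.65 and 4.85 in controls against 5.41, 5.30 and 4.66 in DICER_KO, and as a near-identical copy it is not separate evidence. It differed by 0.42 (SE 0.18, adjusted p = 0.298) and rose by 0.66 without replicate 3 (SE 0.12, adjusted p = 0.00106). Over the alternatives the adjusted p ranged from 0.000217 to 0.711 for Psme2, from 0.00218 to 0.814 for Psme1 and from 0.000104 to 0.684 for Psme2b.

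In the immunoproteasome genes, which are not members, DICER_KO replicates 1 and 2 were likewise above every control, as in 28.2% of all genes tested. Psmb8 stood at 6.60, 6.46 and 6.48 log2 CPM in controls against 7.08, 7.14 and 6.45 in DICER_KO (difference 0.38, SE 0.17, adjusted p = 0.305). Psmb9 differed by 0.26 (adjusted p = 0.401) and Psmb10 by 0.43 (adjusted p = 0.339). Without replicate 3 they rose by 0.60, 0.41 and 0.71 (adjusted p = 0.000574, 0.0234 and 0.000368), where 12.5% of all genes rose. Over the alternatives their adjusted p reached 0.670, 0.776 and 0.722.

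**Figure D4:**
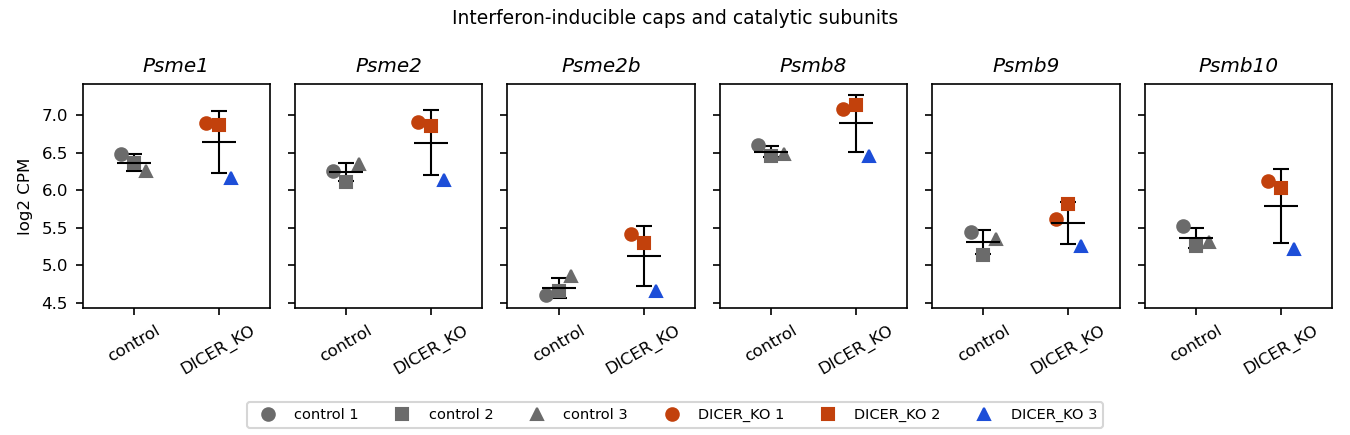
Log2 CPM of the cap genes Psme1, Psme2 and Psme2b and of the immunoproteasome genes Psmb8, Psmb9 and Psmb10 in each library, with the mean and SD of the 3 libraries of each group. In all 6 genes DICER_KO replicates 1 and 2 lie above the controls and replicate 3 (blue) lies among or just below them, as for Psme2 at 6.91 and 6.85 against 6.14.

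The other cap genes had smaller differences. Psme3 encodes the related nuclear cap and read 7.46, 7.36 and 7.39 log2 CPM in controls against 7.48, 7.37 and 7.49 in DICER_KO. The groups overlapped through replicate 2, with replicates 1 and 3 just above the highest control (difference 0.04, SE 0.10, adjusted p = 0.829). Psme4 encodes a single large activator with roles in histone turnover. It read 6.81, 6.65 and 6.89 in controls against 7.12, 6.96 and 6.90 in DICER_KO (difference 0.21, SE 0.11, adjusted p = 0.368). The groups did not overlap, with replicate 3 just above the highest control. No test of the difference between the caps was made.

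Of the 5 measured assembly chaperone genes, 0 passed with all libraries or without DICER_KO replicate 3. Of all genes tested, 0.438% and 19.7% did, so a count of 0 among 5 does not set these genes apart. The core is built with the help of Psmg1, Psmg3 and Psmg4, whose genes differed by 0.08, -0.18 and -0.03. Psmg3 had the largest negative difference of all members. It stood at 4.45, 4.43 and 4.29 log2 CPM in controls against 4.13, 4.12 and 4.38 in DICER_KO (SE 0.12, adjusted p = 0.463). Replicates 1 and 2 were below every control and replicate 3 was within them, and without replicate 3 the difference was -0.26 (SE 0.12, adjusted p = 0.127). The regulatory particle chaperone genes Psmd5 and Psmd10 both differed by 0.12. Psmd10, also known as gankyrin, read 5.10, 5.06 and 5.20 in controls against 5.21, 5.27 and 5.23 in DICER_KO (SE 0.10, adjusted p = 0.551). The groups did not overlap and lay close together. Psmb11, the catalytic subunit gene of the thymus, was close to absent with 2, 0 and 1 reads in controls against 1, 5 and 0 in DICER_KO, and it was not tested.

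Levels were compared between genes per kilobase of annotated exon. In controls the median of the members was 5.42 log2 CPM per kilobase, beside 2.74 for all genes tested that had a length. Core and regulatory particle genes had medians of 5.85 and 5.89, and the assembly chaperone genes had a median of 4.33. Psma6 was the highest at 7.29 ± 0.03 (SD, n = 3), above 98% of tested genes, followed by Psmb4 at 7.06 ± 0.06 and Psmb5 at 6.90 ± 0.08. In the middle of the order, Psma4, Psma1, Psme3, Psmd3 and Psma7 lay between 5.86 and 5.80, closer than the spread of their libraries. Psmg3 was the lowest at 2.86 ± 0.09, and Psmd5 was next at 3.09 ± 0.09. The exon length counts every annotated isoform, so genes with many isoforms are placed too low.

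**Figure D5:**
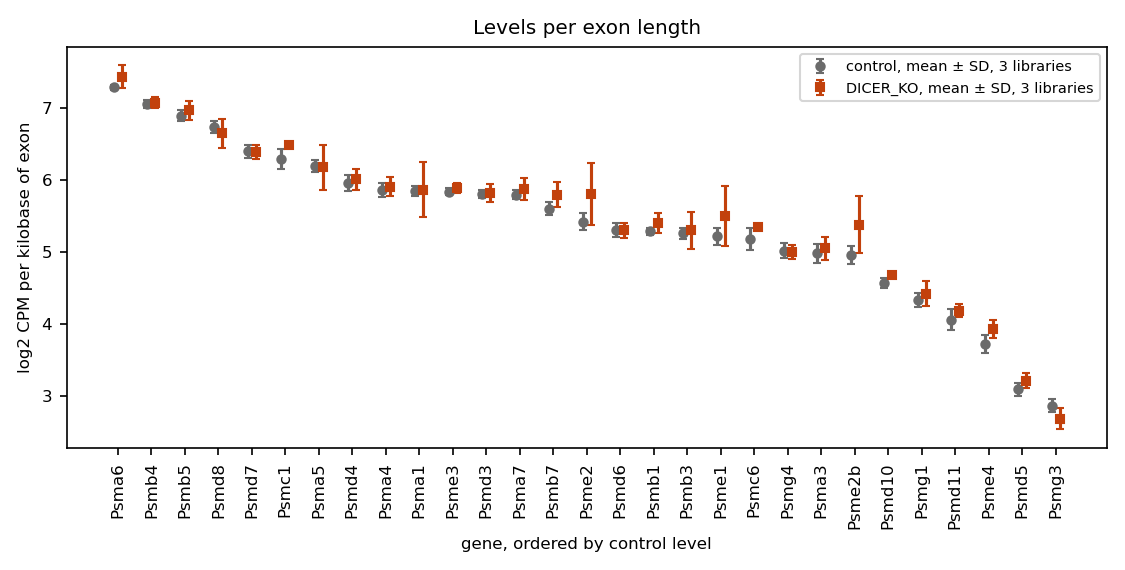
Mean and SD over 3 libraries of log2 CPM per kilobase of exon for each member, in controls (circles) and DICER_KO (squares), ordered by the control mean. Levels run from 7.29 for Psma6 to 2.86 for Psmg3, and the SD is widest in DICER_KO for Psme1, Psme2, Psme2b and Psma1.

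Motifs were searched on both strands of the promoter windows, which 26 of the 30 members had. The core antioxidant response element TGACNNNGC, which Nfe2l1 and Nfe2l2 bind with small Maf proteins, was in 3 members (Psmb5, Psmc6 and Psme4), or 11.5%, and in 16.6% of genes in the table. The ETS motif CCGGAAG was in 10 members, or 38.5%, and in 15.8% of genes. The NF-Y box CCAAT was in 10 members and in 41.9% of genes. Of all 32851 windows, 12.4, 8.86 and 37.4% held these motifs and 3.44% held the interferon-stimulated core; every motif was allowed to overlap the others. A match is a description of the letters and not a bound site. The windows of Psmb5 and Psme4 are shown because their response elements sit close to the start, in a gene whose groups overlapped and in one whose groups did not; capitals mark the match.
Psmb5, chr14:54617946-54618245, minus strand: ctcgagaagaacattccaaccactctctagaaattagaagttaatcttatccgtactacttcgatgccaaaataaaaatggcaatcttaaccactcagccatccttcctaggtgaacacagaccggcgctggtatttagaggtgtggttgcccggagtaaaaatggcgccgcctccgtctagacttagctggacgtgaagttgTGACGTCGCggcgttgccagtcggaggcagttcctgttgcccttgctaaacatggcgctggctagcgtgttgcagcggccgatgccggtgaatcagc
Psme4, chr11:30771525-30771824, plus strand: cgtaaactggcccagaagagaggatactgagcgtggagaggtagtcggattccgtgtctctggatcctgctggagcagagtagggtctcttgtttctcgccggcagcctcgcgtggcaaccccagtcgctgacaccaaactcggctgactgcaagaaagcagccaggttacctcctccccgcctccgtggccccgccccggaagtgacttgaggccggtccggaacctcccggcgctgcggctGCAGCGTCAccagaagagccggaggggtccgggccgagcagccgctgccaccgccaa
In Psmb5 the match lies at bases -47 to -39 on the coding strand, and in Psme4 it spans bases -7 to 2 on the opposite strand.

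Genes that work with the proteasome were counted from lists of the pathway. Of 16 measured proteasome partners and shuttle factors 0 passed with all libraries, where 0.438% of all genes tested did. Their median difference was 0.12. Ube3a, a ubiquitin ligase gene, had the smallest p. It read 6.01, 5.78 and 6.43 log2 CPM in controls against 6.76, 6.64 and 6.43 in DICER_KO (difference 0.54, SE 0.16, adjusted p = 0.177). Its groups met at control replicate 3 and DICER_KO replicate 3. Without DICER_KO replicate 3, 3 of the 16 rose and 0 fell, where 12.5% of all genes rose and 7.22% fell. These were Ube3a by 0.63 (adjusted p = 0.00687), the autophagy receptor gene Sqstm1 by 0.38 (0.0266) and Ngly1, whose enzyme deglycosylates Nfe2l1, by 0.35 (0.0456). Over the alternatives these adjusted p reached 0.541, 0.704 and 0.704.

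Of 4 measured genes of ubiquitin and its activation, 0 passed with all libraries, with a median difference of -0.09. Of 7 measured partners and relatives of Nfe2l1, 0 passed with all libraries. In that setting 0.438% of all genes tested passed. The small Maf genes Maff and Mafk differed by -0.26 and -0.27 (adjusted p = 0.356 and 0.291), and without DICER_KO replicate 3 they fell by 0.40 and 0.34 (adjusted p = 0.00892 and 0.0332), where 7.22% of all genes fell. Over the alternatives their adjusted p reached 0.733 and 0.665. None of 7 heat shock genes passed with all libraries, beside the same 0.438% of all genes, and their median difference was 0.01. Their summed level was 11.10 to 11.21 log2 CPM in controls against 11.06 to 11.22 in DICER_KO. The 3 measured of 4 proliferation genes summed to 9.35 to 9.60 and 9.59 to 9.82.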

How the data were processed

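Poly(A) RNA of 6 libraries (3 control, 3 DICER_KO) was sequenced, per the labels. The authors deposited log2 CPM values, 1 column per library. Tools listed per the submitters' processing notes were HISAT2, featureCounts, edgeR, Trimmomatic and FastQC, with no version, and the genome was mm10 (GRCm38). The counting is not stated to use strand. Each deposited log2 value equals the log2 of reads plus 0.5, scaled by library size plus 1, for a whole number of reads (100% of values within 0.01 reads). The library size these values imply may hold a TMM factor, and reads in the table were 71.5 to 77.1% of it.

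Entrez IDs were matched to RefSeq symbols of GRCm38.p6 (13682 matched, 52 did not). Genes reaching 1 CPM in 3 or more libraries entered a limma-trend fit (limma 3.58.1, R 4.3.3) on the deposited log2 scale, with group as the only term and Benjamini-Hochberg adjustment over 10054 genes. Differences are DICER_KO minus control. The fit was run on simulated reads in which no library stood apart and the changes set were larger than any fitted for a member. That run does not show how the fit behaves on data like these. Exon lengths came from GENCODE M21 and promoters from RefSeq (GRCm38.p6). Python 3.11.15, numpy 2.4.6, pandas 2.3.3 and matplotlib 3.10.9 made the summaries.

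The members and lists were chosen with earlier results of these data known, so no test over the members alone is given. Named are all measured members, described at most length where a role group's largest or smallest difference or smallest p lies, and partner genes past the threshold or with a list's smallest p. Partner genes named for passing without DICER_KO replicate 3, and the interferon-stimulated motif, were chosen after values were seen. Alternatives changed the scaling, filter, pseudocount, test and libraries.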

Additional observations from a re-analysis of the deposited data

How the results depend on the processing

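With all libraries 15 genes were called higher and 29 lower, and 0 members. Leaving out single libraries gave 0 to 1257 genes higher and 1 to 726 lower, with 0 to 4 members higher and 0 lower. The highest counts came without DICER_KO replicate 3, and without control replicate 3 there were 0 higher and 1 lower. Without control replicate 1 there were 4 and 7, without control replicate 2 there were 3 and 7, and without DICER_KO replicate 2 there were 7 and 12. No intensity trend gave 6 and 13. Sample weights gave 2542 and 1942, with 7 members higher and 2 lower, but the weights ran from 0.203 (DICER_KO replicate 3) to 7.54 (control replicate 1) and their estimate stopped before it converged. A replicate block gave 0 and 2 with 0 members. Replicate numbers did not pair the libraries: same-numbered deviations correlated at 0.195, -0.0142 and -0.0786, and 1 of 3 numbers was the best match of its own libraries. The cause of these shifts was not tested. The medians of members, core and regulatory particle, and their gap, moved by less than 1 SD between libraries under every alternative run. That SD takes in DICER_KO replicate 3, which widens it, so it cannot show that the medians are stable. The median of members was 0.07 with all libraries, 0.14 without DICER_KO replicate 3 and 0.0004 without DICER_KO replicate 1.

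Differences near 0 changed sign. Median centring gave -0.02 for Psma1, -0.02 for Psmb4 and -0.03 for Psmd3, and median-of-ratios scaling gave -0.01 for Psmd3. Sample weights gave -0.0017 for Psma3, 0.02 for Psma5, -0.01 for Psmd3, -0.03 for Psme3 and -0.02 for Psmg1. Leaving out single libraries moved Psma1 from -0.11 to 0.23, Psma3 from -0.01 to 0.14, Psma4 from -0.03 to 0.10, Psma5 from -0.15 to 0.15, Psmb3 from -0.06 to 0.19, Psmb4 from -0.01 to 0.06, Psmd3 from -0.07 to 0.05, Psmd4 from -0.01 to 0.13, Psmd6 from -0.07 to 0.05, Psmd7 from -0.06 to 0.04, Psmg1 from -0.01 to 0.14 and Psmg4 from -0.08 to 0.03. None of these signs was past the threshold. The planned edgeR and DESeq2 tests were not run, because the deposited values are log2 CPM. With 3 libraries a group and 1 that stands apart, the smallest difference called in any gene with all libraries was 0.58, against 0.28 without DICER_KO replicate 3.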
